A study of Drosophila melanogaster with 3 samples.

Results

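The cytosolic ribosomal protein genes of Drosophila melanogaster were examined for binding of GFP-tagged Mirror (mirr), 1 of the Iroquois homeodomain proteins. The genes were chosen by symbol alone, as protein-coding genes on the main chromosome arms whose name begins with RpL or RpS followed by a digit or by P. The rule gave 92 of 13945 genes, 54 of the large (60S) and 38 of the small (40S) subunit, and used no measured value. Binding was measured by ChIP-seq in whole embryos of a transgenic line that stably expressed mirr with GFP fused at its C-terminus. The embryos were aged 4 to 20 h, of mixed sex and pooled, and all 3 samples were biological replicates of 1 group, with chromatin sonicated to 200 to 800 bp. An untagged line was not analysed here, and whether the signal at these genes requires the tagged protein was not tested. The sequence that drives the fusion is not given in the sources used here. The free-text description of each sample calls it an input control, whereas its title and antibody name a transcription factor ChIP, and the deposited lists name a separate control alignment. Whole embryos hold many cell types, so strong binding in few cells and weak binding in many cannot be told apart.

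Ribosomal proteins are the structural proteins of the ribosome, which every cell needs in matched amounts, and their genes are among the most active in growing tissue. In Drosophila many of their promoters start transcription at a C within a run of pyrimidines, the TCT initiator, and several also carry the DNA replication-related element (DRE), which binds the factor Dref. Mirror belongs to the TALE class of homeodomain proteins, and the Iroquois proteins act in pattern formation of the wing, the body wall and the eye and are known to bind ACANNTGT.

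The lists differed in stringency. The optimal list held 6201 regions kept by irreproducible discovery rate (IDR), a procedure based on how well the ranks of regions recur. Each replicate also had a relaxed list of 30000 regions called without that filter, as had all replicates together. Every optimal summit counted for a ribosomal protein gene had the same rank and signal in that last list. A region of the optimal list thus need not recur in each replicate. Within each list a region was ranked by the signal the authors deposited, rank 1 being the strongest, and the position of its summit, the highest point, was set against annotated transcription start sites (TSSs). A gene was counted as bound when a summit of the optimal list lay within 1000 bp of any of its TSSs. The optimal list was derived from the same replicate data and the replicates shared 1 control alignment, so the lists are not independent. Sequencing depth is unknown. Signal in the optimal list ranged from 190.7 to 4323 with a median of 294.5. Genes of 1 family share these lists and are not replicates of a condition, so no test was made across them and their counts are set beside those over all genes.

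Promoter sequences of bound and unbound genes are shown because the summits lay on them. Windows of 130 bases, 100 before a TSS and 30 from it on, are printed 5′ to 3′ on the strand of the gene from the RefSeq release 6 (dm6) genome. Capitals mark CTTT with its C within 5 bp of the TSS, TATCGATA (the DRE), GGTCACACT (Motif 1, which binds M1BP), ACANNTGT, and TGACAG or its reverse complement CTGTCA, a core known from the TALE protein Homothorax. The first set holds 5 genes with summits among the strongest of the family whose shown TSS is the most upstream one. Their windows are chr3L:8600906-8601035 (plus strand) for RpL14, chr3R:11216258-11216387 (minus strand) for RpS25, chr3R:5624374-5624503 (plus strand) for RpL13A, chr3L:1668625-1668754 (minus strand) for RpL23A and chr3R:9401197-9401326 (minus strand) for RpL34b. All 5 hold the CTTT start, 3 hold the TGACAG core, 1 holds the DRE and none holds ACANNTGT.
RpL14: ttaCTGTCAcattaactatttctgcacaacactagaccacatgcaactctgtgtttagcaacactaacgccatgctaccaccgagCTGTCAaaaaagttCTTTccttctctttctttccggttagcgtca
RpS25: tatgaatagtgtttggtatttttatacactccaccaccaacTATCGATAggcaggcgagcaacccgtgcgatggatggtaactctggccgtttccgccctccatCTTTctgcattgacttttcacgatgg
RpL13A: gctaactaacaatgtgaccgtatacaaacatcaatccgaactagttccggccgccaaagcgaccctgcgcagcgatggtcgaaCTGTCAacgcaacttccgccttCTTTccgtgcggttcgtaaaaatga
RpL23A: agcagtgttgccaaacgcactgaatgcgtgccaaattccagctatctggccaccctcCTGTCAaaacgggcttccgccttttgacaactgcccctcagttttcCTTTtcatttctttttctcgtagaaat
RpL34b: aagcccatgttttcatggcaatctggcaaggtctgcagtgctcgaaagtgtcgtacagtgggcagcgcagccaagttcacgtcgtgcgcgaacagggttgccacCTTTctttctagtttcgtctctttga

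The second set holds gene copies that encode the same ribosomal protein and of which 1 carried a summit of the optimal list and the other did not. There were 8 such sets, and only some are printed. The bound copies are RpS5a, RpS10b, RpS19a and RpL10Ab, and each is followed by its unbound copy. Their windows are chrX:17148235-17148364 (minus strand) for RpS5a, chr3R:14901534-14901663 (minus strand) for RpS5b, chrX:19597931-19598060 (plus strand) for RpS10b, chr3R:27652660-27652789 (plus strand) for RpS10a, chrX:16637794-16637923 (plus strand) for RpS19a, chr3R:23933501-23933630 (minus strand) for RpS19b, chr3L:11822751-11822880 (plus strand) for RpL10Ab and chr3R:15037266-15037395 (plus strand) for RpL10Aa. The CTTT start stands in RpS5a, RpS5b and RpS19a, the DRE in RpS10b and RpL10Ab, and the TGACAG core in RpS5b. The printed copies do not stand for the family. The unbound RpS14a, not printed, holds the CTTT start, the DRE and TGACAG. In wider promoter windows the DRE stood in 22 of 72 bound and 6 of 20 unbound genes.
RpS5a: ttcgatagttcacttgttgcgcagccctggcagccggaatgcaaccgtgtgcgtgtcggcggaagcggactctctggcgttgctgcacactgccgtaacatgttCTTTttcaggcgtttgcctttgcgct
RpS5b: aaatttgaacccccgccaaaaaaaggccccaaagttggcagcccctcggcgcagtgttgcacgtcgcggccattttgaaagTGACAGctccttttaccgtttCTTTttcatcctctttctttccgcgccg
RpS10b: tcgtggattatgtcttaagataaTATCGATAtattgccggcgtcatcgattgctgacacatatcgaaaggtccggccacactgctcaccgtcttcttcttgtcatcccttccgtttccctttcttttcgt
RpS10a: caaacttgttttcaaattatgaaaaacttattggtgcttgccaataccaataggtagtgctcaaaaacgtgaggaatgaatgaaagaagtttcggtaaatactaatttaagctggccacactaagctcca
RpS19a: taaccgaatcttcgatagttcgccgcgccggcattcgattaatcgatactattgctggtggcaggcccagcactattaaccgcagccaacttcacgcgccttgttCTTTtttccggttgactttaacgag
RpS19b: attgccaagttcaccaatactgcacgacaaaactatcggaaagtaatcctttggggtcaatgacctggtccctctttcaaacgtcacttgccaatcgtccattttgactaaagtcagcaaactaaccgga
RpL10Ab: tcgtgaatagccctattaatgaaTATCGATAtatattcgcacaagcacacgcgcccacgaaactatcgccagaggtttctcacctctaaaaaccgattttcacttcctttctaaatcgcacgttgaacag
RpL10Aa: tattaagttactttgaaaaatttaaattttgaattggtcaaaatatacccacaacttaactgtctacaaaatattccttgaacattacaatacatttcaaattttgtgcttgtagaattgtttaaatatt

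The third set holds 2 genes with a single copy that carried no summit of the optimal list, RpL40 at  and chr2L:4227599-4227728 (plus strand) for RpL40 and RpL10 at  and chr3L:23095442-23095571 (minus strand) for RpL10. RpL40, which encodes a ribosomal protein fused to ubiquitin, has the CTTT start, and RpL10, a protein that joins the large subunit late in its assembly, has none of the marked sequences.
RpL40: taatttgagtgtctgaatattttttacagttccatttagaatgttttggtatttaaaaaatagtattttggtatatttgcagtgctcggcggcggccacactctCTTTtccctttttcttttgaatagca
RpL10: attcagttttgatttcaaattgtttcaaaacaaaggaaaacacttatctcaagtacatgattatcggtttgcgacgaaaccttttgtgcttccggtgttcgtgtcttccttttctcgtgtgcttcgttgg

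Most ribosomal protein genes carried a Mirror summit at their promoter. Of the 92 genes, 72 (78.3%) were bound in the optimal list, against 25.1% of all protein-coding genes. The relaxed lists reached 87 of the genes (94.6%) in replicate 1, 81 (88.0%) in replicate 2 and 77 (83.7%) in replicate 3, against 58.9%, 52.8% and 52.4% of all genes. The relaxed list called on all replicates together reached 84 (91.3%), against 54.5% of all genes. All 3 relaxed lists reached 72 of the ribosomal protein genes (78.3%), against 39.3% of all genes, and 68 of the 72 bound genes were among them. The other 4 bound genes had a region in 2 of the lists.

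The same held when each replicate list was cut to its 6201 strongest regions, which gives lists of equal length without the IDR step. These regions reached 78 ribosomal protein genes (84.8%) in replicate 1, 70 (76.1%) in replicate 2 and 69 (75.0%) in replicate 3, a mean of 78.6% ± 5.36 (SD, n = 3). Over all genes the shares were 28.1%, 22.4% and 22.6%, a mean of 24.4% ± 3.24 (SD, n = 3). The lowest share of the ribosomal protein genes was thus above the highest share over all genes, by more than the spread between replicates. In all 3 replicates the strongest regions reached 63 ribosomal protein genes (68.5%), against 14.8% of all genes. In no replicate did they reach 12 of the 92 ribosomal protein genes, against 9169 of the 13945 genes of all kinds (65.8%).

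**Figure D1:**
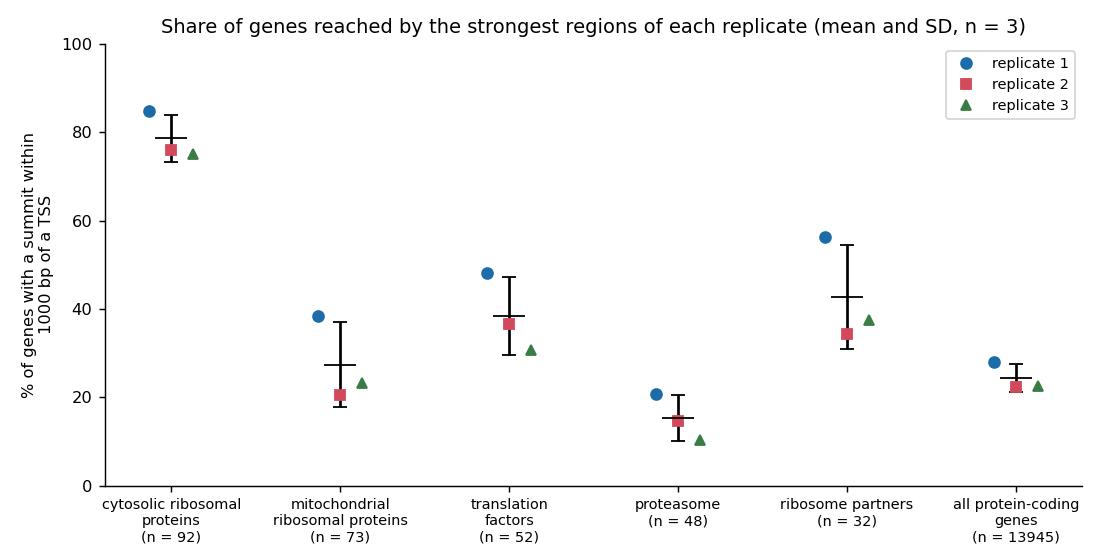
Share of genes with a summit within 1000 bp of a TSS among the 6201 strongest regions of each replicate, in percent, for cytosolic ribosomal protein genes, 4 other gene lists and all protein-coding genes. Points are replicates and bars are mean ± SD (n = 3); the ribosomal protein genes sit between 75.0% and 84.8%, above all points of the other lists.

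Other genes of protein synthesis and turnover were bound at lower shares. The mitochondrial ribosomal protein genes, whose products serve the ribosome of that organelle, were bound at 24 of 73 (32.9%) and averaged 27.4% ± 9.59 over the strongest regions of the replicates (SD, n = 3). Genes of translation initiation and elongation factors were bound at 21 of 52 (40.4%), with a replicate mean of 38.5% ± 8.81 (SD, n = 3). Proteasome subunit genes were bound at 9 of 48 (18.8%), with a replicate mean of 15.3% ± 5.24 (SD, n = 3). Over all genes 25.1% were bound, with a replicate mean of 24.4% ± 3.24 (SD, n = 3). In every replicate the share of cytosolic ribosomal protein genes exceeded those of these 3 lists.

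Both subunits of the ribosome were covered alike. Of the 60S genes 42 of 54 were bound (77.8%), with a median rank of 817.5 in the optimal list, and of the 40S genes 30 of 38 (78.9%), with a median rank of 890.5. The bound genes lay on every arm, with 12 of 19 on 2L, 16 of 21 on 2R, 12 of 14 on 3L, 18 of 23 on 3R, 13 of 14 on X and the only gene on 4. Over all genes the share bound was 24.6%, 27.3%, 25.7%, 25.6%, 21.6% and 6.25% on the same arms.

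The summits at ribosomal protein genes were also strong ones. Their median rank in the optimal list was 846.5 of 6201 (lowest 21, highest 5449), against a median of 2700 over the 3494 bound genes of all kinds. Their median signal was 552 (209 to 2012), against 320 over all bound genes. Among the strongest 10% of optimal regions lay the summits of 29 of the 72 genes (40.3%), against 14.5% of all bound genes. Peaks at the ribosomal protein genes were narrower, with a median width of 255 bp, against 396 bp. The width of 396 bp recurred, being also the upper quartile over all bound genes and the median of the optimal list. Weak summits of the family, among them those of RpL26, RpS6 and RpS3, had it too. Whether width followed rank or the peak caller was not tested. In the relaxed lists the median ranks were 862, 2037 and 1370 in replicates 1, 2 and 3, against 6592, 7634 and 7725 over all genes with a region there.

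**Figure D2:**
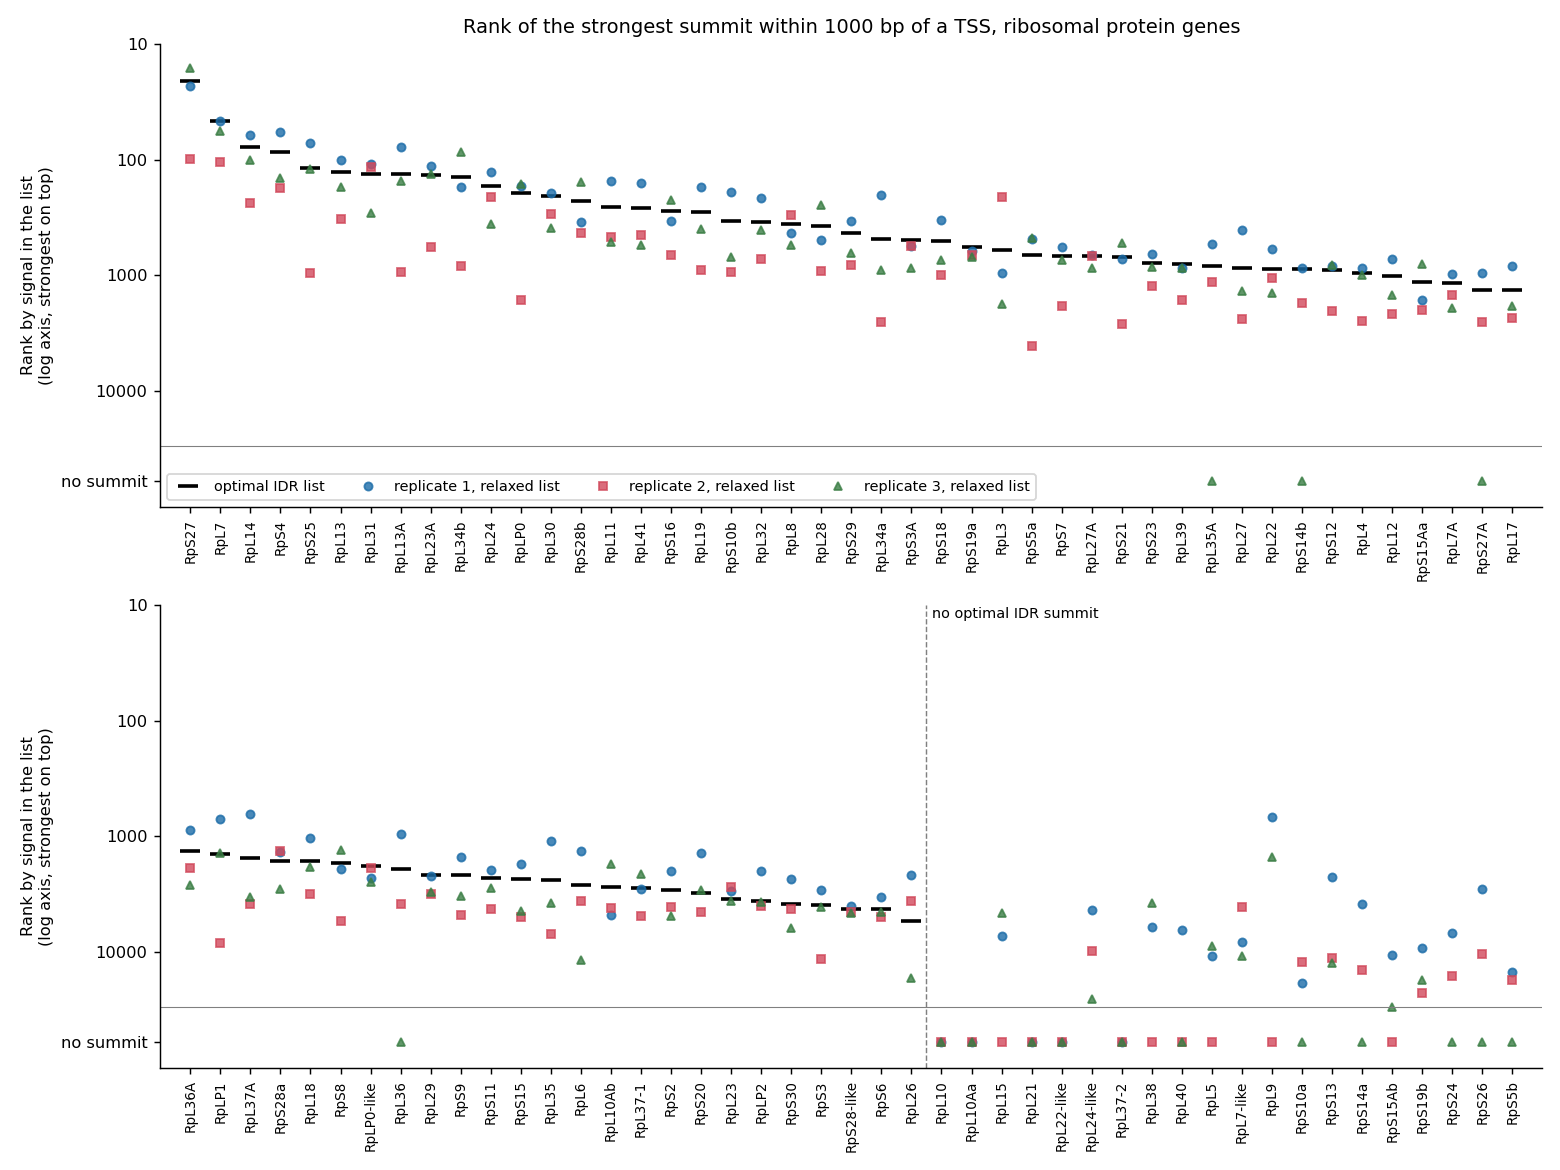
Rank by signal of the strongest summit within 1000 bp of a TSS for 90 of the 92 ribosomal protein genes, 70 bound and 20 unbound (log axis, strongest on top), in the optimal IDR list (bars) and in the relaxed list of each replicate (symbols). The bound genes are ordered by optimal rank, RpS27 at rank 21 first and RpL26 at rank 5449 last, and the unbound genes follow; symbols on the lowest line mark lists with no summit in reach.

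The strongest summit lay at RpS27, which encodes a zinc-finger protein of the small subunit. Its region spanned chr3R:25247343-25247677, with the summit 12 bp downstream of a TSS, and had rank 21 in the optimal list (signal 2012). It had rank 23 in replicate 1, 98 in replicate 2 and 16 in replicate 3. It was thus among the 100 strongest regions in every replicate, lowest in replicate 2.

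RpL7, a protein of the large subunit, had the next region, at chr2L:10200888-10201198, with optimal rank 46 and ranks of 46, 105 and 56 in replicates 1, 2 and 3. Its summit lay 27 bp downstream of a TSS. RpL14, also of the large subunit, had optimal rank 77 with its summit 28 bp upstream of its only TSS, and ranks of 61, 239 and 101. RpS4, of the small subunit, had optimal rank 85 with its summit 4 bp downstream of a TSS, and ranks of 58, 174 and 144. In these 3 genes as in RpS27 the weakest rank came from replicate 2.

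Further strong summits lay at RpS25, RpL13, RpL31, RpL13A, RpL23A, RpL34b and RpL24, at optimal ranks 118 to 169. RpL23A lies at the exit of the tunnel through which new protein leaves, and RpS25 is known for its part in initiation at internal ribosome entry sites. Their summits lay between 74 bp upstream (RpL34b) and 5 bp upstream (RpL13) of a TSS. Replicate 2 gave the weakest rank for 5 of these 7, with 953 for RpS25 against 72 and 120 in replicates 1 and 3, and 932 for RpL13A against 77 and 153. RpL31 and RpL24 were weakest in replicate 3, at 286 and 363.

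Over the 72 ribosomal protein genes found in all relaxed lists, the weakest rank came from replicate 2 in 47, from replicate 3 in 24 and from replicate 1 in 1. The order of the genes was similar between replicates. Spearman's rho of their ranks was 0.840 for replicates 1 and 2 (81 genes), 0.909 for replicates 1 and 3 (77 genes) and 0.806 for replicates 2 and 3 (72 genes), against 0.717, 0.798 and 0.703 over all genes. These values are descriptions across genes that share a library and a control in each list.

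The proteins of the ribosomal stalk, which recruits the translational GTPases, covered a wide range. RpLP0, the base of the stalk, had optimal rank 195 and ranks of 169, 1629 and 163 in replicates 1, 2 and 3. RpLP1 had optimal rank 1432 and ranks of 705, 8392 and 1406, and RpLP2 had optimal rank 3593 and ranks of 1988, 3991 and 3683. Their summits lay 13 bp upstream, 3 bp downstream and 18 bp upstream of a TSS, so the position was alike while the strength was not.

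RpL11 and RpL5, the proteins that carry the 5S rRNA into the large subunit, differed. RpL11 had optimal rank 256 and ranks of 154, 464 and 516 in replicates 1, 2 and 3. RpL5 had no optimal summit, ranks of 10763 in replicate 1 and 8846 in replicate 3, and no region in replicate 2. The genes that encode fusions with ubiquitin differed too. RpS27A had optimal rank 1325, ranks of 949 and 2548 in replicates 1 and 2 and no region in replicate 3, and RpL40 had a region in replicate 1 alone, at rank 6515.

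The 4 weakest optimal summits of the family belonged to RpS3, RpS28-like, RpS6 and RpL26, at ranks 3897, 4230, 4258 and 5449. RpS6 is the substrate of S6 kinase, and RpS3 lines the mRNA entry channel. The summits of RpS6 and RpS3 lay 30 bp and 72 bp downstream of the TSS. Those of RpS28-like and RpL26 lay 747 bp downstream and 605 bp upstream, nearer to the TSSs of numb and CG3902.

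The summits sat almost on the start site. The median distance from the strongest optimal summit to the nearest TSS of the gene was 18 bp (1 to 747 bp) for the 72 ribosomal protein genes, against 154 bp over all bound genes. Of the 72, 42 (58.3%) lay within 25 bp, 57 (79.2%) within 50 bp and 67 (93.1%) within 100 bp, against 11.4%, 21.4% and 36.8% of all bound genes. Counting every optimal summit in reach, 58 of the 92 ribosomal protein genes (63.0%) had 1 within 50 bp of a TSS, against 6.65% of all genes, 2.74% of the mitochondrial ribosomal protein genes and 19.2% of the translation factor genes.

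The summits lay on both sides of the start. Of the 72, 44 (61.1%) were upstream and 28 downstream, with a median of 9 bp upstream, against 72.7% upstream and a median of 92 bp upstream over all bound genes. The 50 bases just before the TSS held 35 of the summits (48.6%) and the 50 from the TSS on held 22 (30.6%), against 13.2% and 8.04% of all bound genes. In the relaxed lists the median distance was 24, 27 and 27 bp in replicates 1, 2 and 3, against 157, 164 and 222 bp over all genes with a region. For the 72 ribosomal protein genes found in all 3 lists, the highest and lowest summit position differed by a median of 33 bp between replicates, against 97 bp over the 5485 genes of all kinds.

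**Figure D3:**
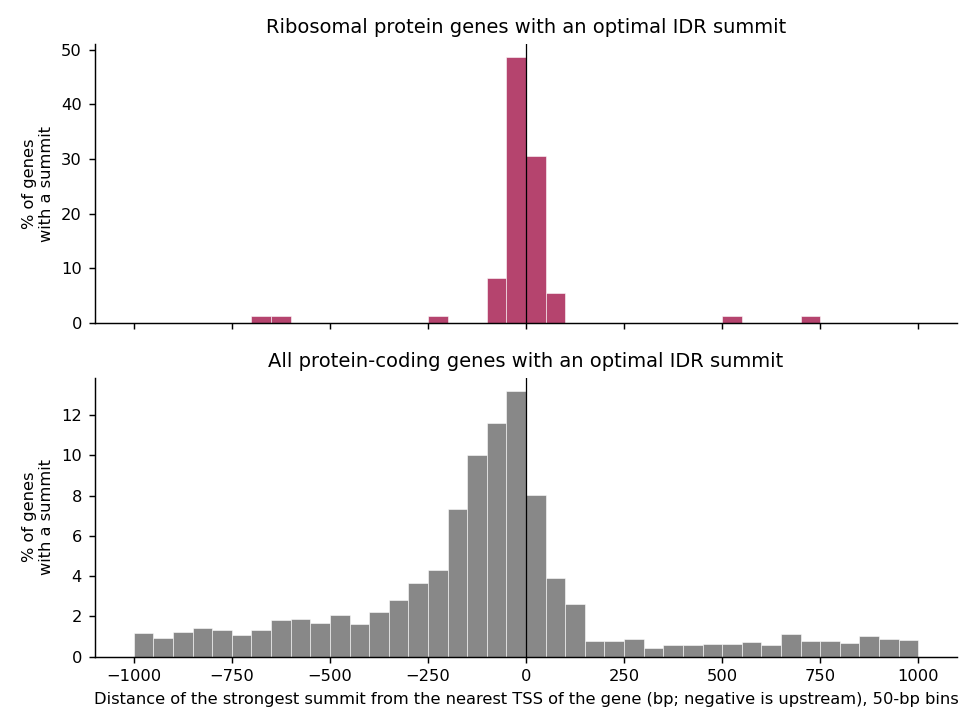
Distance from the strongest optimal summit to the nearest TSS of the gene, in 50-bp bins (negative is upstream), as percent of the 72 bound ribosomal protein genes (top) and of all 3494 bound genes (bottom); the vertical axes differ in scale. The 2 bins next to the TSS hold 48.6% and 30.6% of the ribosomal protein genes, against 13.2% and 8.04% of all bound genes.

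Few of the summits lay nearer to another gene. The summit of 67 of the 72 genes (93.1%) was nearest to a TSS of the gene itself, against 77.5% of all bound genes. The exceptions were RpS28a, RpLP0-like, RpS20, RpS28-like and RpL26, whose summits lay nearest to Mgat2, 14-3-3zeta, CG17271, numb and CG3902. Near the limit of 1000 bp, RpS28-like (747 bp) was the farthest inside. RpS14a lay just outside, and its nearest optimal summit, at 1116 bp, was that of its neighbour RpS14b.

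Many ribosomal protein genes stood close to another promoter. For 58 of the 92 a TSS of another gene lay within 1000 bp, as it did for 5985 of the 13945 genes of all kinds. Of the 58, 49 (84.5%) were bound, against 34.3% of all genes with such a neighbour. Of the 34 with no other TSS in that range 23 were bound (67.6%), against 18.1% of the 7960 such genes of all kinds.

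Pyrimidine-rich starts were frequent in the family. CTTT with its C within 5 bp of a TSS, read on the sense strand, stood at 58 of the 92 ribosomal protein genes (63.0%), against 8.07% of all genes. The count depends on the window: it was 31 (5.64% of all genes) at the most upstream TSS alone and 20 (3.28%) with the C within 2 bp of a TSS. Pyrimidines made up on average 68.8% of the bases from 5 before to 10 after the most upstream TSS, against 52.0% over all genes. With the 5-bp window, in which alone this was counted, 46 of the 58 genes with the CTTT start were bound (79.3%) and 26 of the 34 without it (76.5%). Over all genes 34.8% of those with it and 24.2% of those without it were bound.

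Ribosomal protein genes that hold small nucleolar RNAs were nearly all bound. A gene counted as a host when such an RNA lay within its span on the same strand, and position in an intron was not checked. These RNAs guide the modification of ribosomal RNA and are released from the introns of the host transcript. Of the 92 genes 28 held at least 1 such RNA (30.4%), and 26 of these 28 were bound (92.9%). Over all genes 84 were hosts (0.602%) and 53 of these were bound (63.1%), a count that includes the 28. The host with the most, RpS5a with 14 small nucleolar RNAs, had optimal rank 664, and the unbound hosts were RpL5 and RpL15.

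The 100 bases to each side of the 72 strongest summits were read for short sequences on both strands, and the shares were set beside the 2620 different summits that were strongest for any bound gene. The Iroquois sequence ACANNTGT stood in 2 windows (2.78%, 95% Wilson interval 0.765 to 9.57), at RpL26 and RpL6, against 12.9% of the summits of all bound genes and 13.4% of all 6201 optimal summits. The DRE, TATCGATA, stood in 19 windows (26.4%, 17.6 to 37.6), against 4.92% and 2.52%. TGACAG stood in 15 windows (20.8%, 13.1 to 31.6), against 7.10% and 7.58%, and Motif 1, GGTCACACT, in 7 (9.72%, 4.79 to 18.7), against 2.79% and 1.42%. The GATA sequence GATAAG stood in 6.94% of the windows, against 25.6% of the summits of all bound genes, and the GAGA sequence GAGAG in 15.3%, against 32.3%. The repeat CACACA stood in 9.72%, against 23.0%, and the E-box CANNTG in 61.1%, against 67.5%. The summits of all bound genes include the 72, an occurrence of these letters is a description and not a binding site, and any CTGTCA counts as TGACAG on the other strand. The windows were not matched for distance from the TSS, whose median was 18 bp for the ribosomal protein genes and 154 bp over all bound genes. Whether the shares differ at equal distance was not tested. Sequences can overlap: ACANNTGT holds the letters of CANNTG, and GATAAG shared bases with TATCGATA in 2 of the 5 windows that held it.

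The lower shares depended on the width of the window. Within 250 bp of the summit ACANNTGT stood at 19.4% of the ribosomal protein genes, against 25.3% of all bound genes, and GATAAG at 20.8%, against 38.4%. GAGAG stood at 37.5%, against 56.0%, and CACACA at 36.1%, against 43.3%. The DRE stood at 27.8%, against 8.66%, and TGACAG at 23.6%, against 15.8%.

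**Figure D4:**
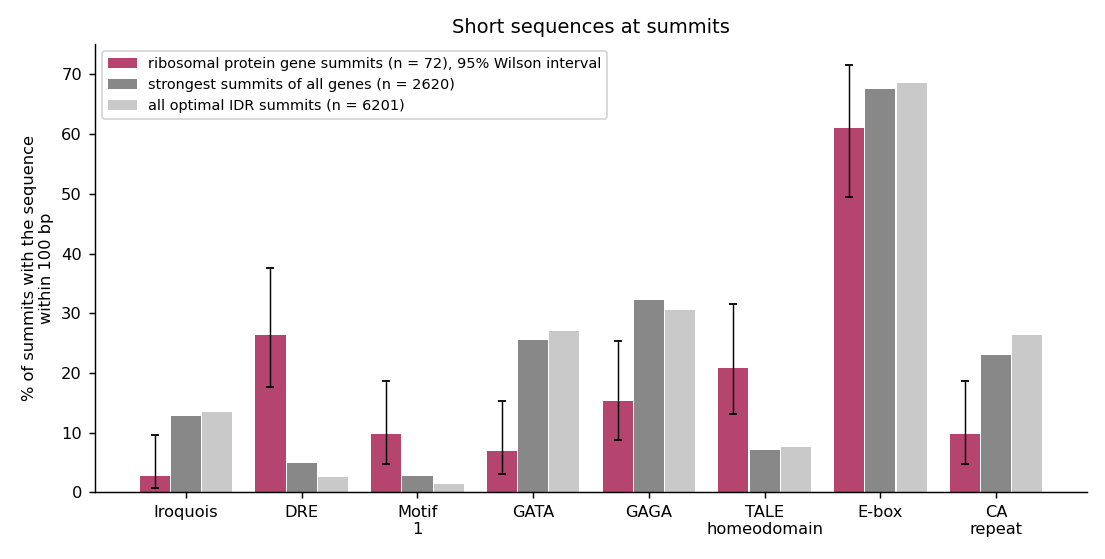
Percent of summits with each sequence within 100 bp, for the 72 summits of ribosomal protein genes (left bar, with 95% Wilson interval), the 2620 strongest summits of all bound genes (middle) and all 6201 optimal summits (right). The ribosomal protein genes stand higher for the DRE (26.4% against 4.92%) and TGACAG (20.8% against 7.10%), and lower for ACANNTGT (2.78% against 12.9%) and GATAAG (6.94% against 25.6%). Summits were not matched for distance from the TSS.

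Positions were taken from matches within 100 bp of the summit, which itself lay close to the TSS, and were not compared with other summits. All but 1 of the 19 DRE copies lay upstream, at a median of 53 bp before the TSS (88 before to 18 after), and 13 lay within 50 bp of the summit. All 7 copies of Motif 1 lay upstream, at a median of 14 bp before the TSS. The 17 copies of TGACAG, in 15 genes, lay between 95 bp before and 709 bp after the TSS, with 11 upstream and a median of 14 bp before it. Their median distance from the summit was 24 bp, and 15 lay within 50 bp of it.

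In promoters, taken as 250 bases before to 50 after the most upstream TSS whether bound or not, the DRE stood in 28 of the 92 ribosomal protein genes (30.4%), against 9.36% of all 13945 promoters. TGACAG stood in 19 (20.7%), against 11.8%, Motif 1 in 9 (9.78%), against 6.05%, and ACANNTGT in 8 (8.70%), against 13.4%. GATAAG stood in 18.5%, against 18.9%, GAGAG in 17.4%, against 29.7%, CANNTG in 71.7%, against 77.2%, and CACACA in 9.78%, against 19.2%. The DRE stood in 22 of the 72 bound and 6 of the 20 unbound genes, TGACAG in 12 and 7, and Motif 1 in 9 and 0.

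The 20 genes without an optimal summit were of several kinds. RpL10, RpL10Aa, RpL21, RpL22-like and RpL37-2 had no region in any replicate list, and RpL40 had a region in 1. RpL5, RpL9, RpL15, RpL38, RpS5b, RpS10a, RpS14a, RpS15Ab, RpS24 and RpS26 had a region in 2, and RpL7-like, RpL24-like, RpS13 and RpS19b in all 3. The lists hold only regions that passed the peak caller, so absence from a list is not a measured level of 0.

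Several of the unbound genes lay in stretches with few regions of any kind. Within 100 kb of RpL10 (chr3L:23093190-23095471), RpL15 (chr3L:27267255-27268445), RpL38 (chr2R:4515388-4516458) and RpL5 (chr2L:22532279-22536884) there was no optimal region, whereas the median was 13 over the ribosomal protein genes and 11 over all genes. Over all 13945 genes, 403 had no optimal region within that distance. The relaxed lists were as sparse there, with at most 1 region in replicate 1, 0 in replicate 2 and 4 in replicate 3 around each of the 4 genes. RpL21 (chr2L:22247111-22247875) had 1 optimal region and 5, 4 and 9 regions in replicates 1, 2 and 3 within 100 kb, where the median over all genes was 55, 53 and 53. Whether reads could be mapped at these places was not tested.

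Other unbound genes had regions in some or all replicates. RpL9, of the large subunit, had ranks of 682 in replicate 1 and 1511 in replicate 3 and no region in replicate 2. RpS13, of the small subunit, had ranks of 2230, 11184 and 12570 in replicates 1, 2 and 3. RpS26, which in yeast contacts mRNA upstream of the start codon, had ranks of 2856 and 10400 in replicates 1 and 2. RpS24 had ranks of 6821 and 16201 in the same replicates.

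Paralogs were often unequal. The family holds 13 sets of paralogs, grouped by symbol, with 27 genes in all, of which 17 were bound (63.0%), against 55 of the 65 genes outside these sets (84.6%). Of the 12 sets of 2 genes, 10 had exactly 1 bound gene and 2 had both bound. In 3 of the 12 sets the second gene is the counterpart of a yeast assembly factor, and of the other 9 sets 8 had 1 bound copy and 1 had both bound. Of the 20 unbound genes 10 belonged to these sets of paralogs. In flies several of the unbound copies are known for expression in the germ line, among them RpS5b, RpS10a, RpS19b and RpL22-like.

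The bound copy was strong in most of these sets. RpS10b had optimal rank 342 and ranks of 191, 931 and 688 in replicates 1, 2 and 3, while RpS10a had ranks of 18551 and 12324 in replicates 1 and 2 alone. RpS19a had optimal rank 570 and ranks of 619, 665 and 696, while RpS19b had ranks of 9226, 22579 and 17433. In replicates 1 and 3 the summits in reach of RpS19b were all nearest to another gene. RpS5a had optimal rank 664 and ranks of 480, 4109 and 472, while RpS5b had ranks of 14765 and 17514 in replicates 1 and 2. In each of these sets the unbound copy ranked below the bound copy in every replicate where it had a region.

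RpL22 had optimal rank 876, and RpL22-like had no region in any list. RpL10Ab and RpL37-1 had optimal ranks 2733 and 2784, and their copies RpL10Aa and RpL37-2 had no region in any list. RpS15Aa had optimal rank 1134, while RpS15Ab had ranks of 10623 and 29972 in replicates 1 and 3, the former from a summit nearest to another gene. RpS14a and RpS14b stand in tandem on X and have near-identical products. RpS14b had optimal rank 877 and ranks of 862 and 1734 in replicates 1 and 2, while RpS14a had 3879 and 14415 there. How the authors treated reads that fit both copies is not given in the sources used here.

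RpL7-like, RpL24-like and RpLP0-like are the counterparts of the yeast assembly factors Rlp7, Rlp24 and Mrt4. RpL7 had optimal rank 46, while RpL7-like had ranks of 8221, 4087 and 10859 in replicates 1, 2 and 3. In replicates 2 and 3 the summits in reach of RpL7-like were all nearest to another gene. RpL24 had optimal rank 169, while RpL24-like had 4307, 9741 and 25675. RpL34a and RpL34b were both bound, at ranks 489 and 141, with summits 39 bp and 74 bp upstream. RpLP0-like was reached at rank 1805 by a summit nearest to 14-3-3zeta. The RpS28 set had 3 genes within reach of a summit, but that of RpS28b alone (rank 228) was nearest to its own TSS.

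**Figure D5:**
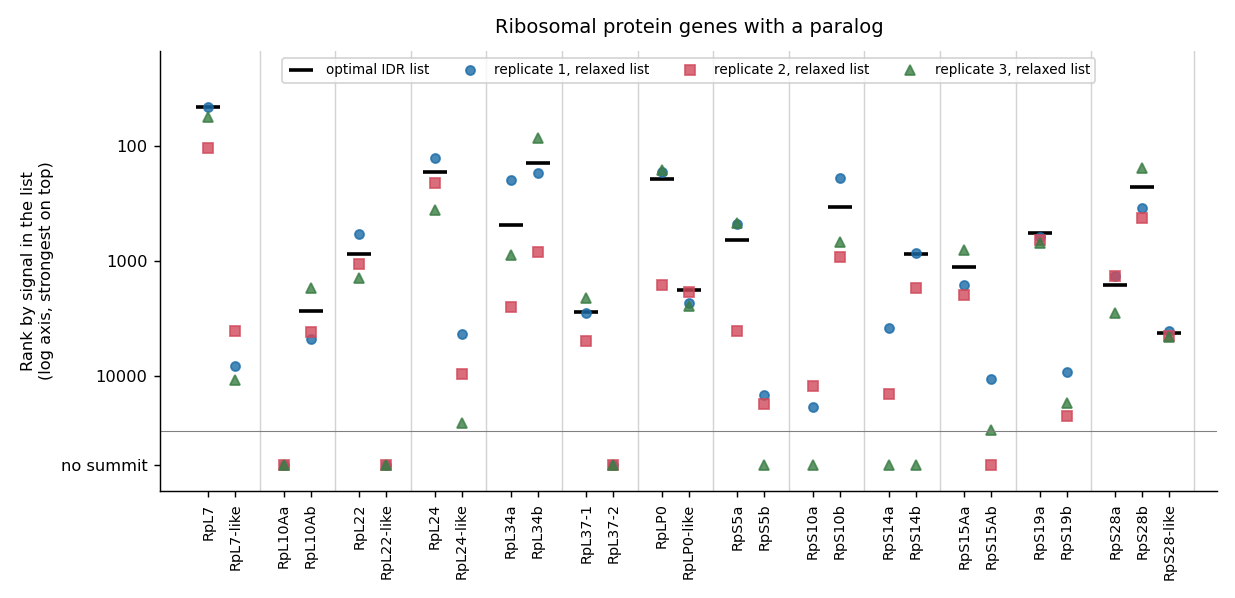
Rank by signal (log axis, strongest on top) of the strongest summit within 1000 bp of a TSS for the 27 genes of the 13 sets of paralogs, in the optimal IDR list (bars) and each replicate (symbols). In 10 of the 12 sets of 2 genes a bar stands over 1 gene only; symbols on the lowest line mark lists with no summit in reach.

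Genes that work with the ribosome but fall outside the symbol rule were examined beside them. Of 34 listed partners 32 were matched in the annotation, and 14 of these were bound (43.8%), against 25.1% of all genes. Their mean over the strongest regions of the replicates was 42.7% ± 11.8, against 24.4% ± 3.24 of all genes (SD, n = 3). Rack1, a scaffold protein of the small subunit, had optimal rank 479 and ranks of 407, 748 and 506 in replicates 1, 2 and 3, with its summit 8 bp upstream of a TSS. The gene sta, which encodes the small-subunit protein SA, had optimal rank 1213 and ranks of 712, 1909 and 2374, with its summit 10 bp upstream. Both lay as close to the TSS as the ribosomal protein genes.

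The strongest partner was eIF6, which keeps the subunits apart during assembly, at optimal rank 10 and ranks of 16, 22 and 9. Trf2, a TBP-related factor known for its action at TCT promoters, had optimal rank 144 with its summit 746 bp downstream of a TSS, and ranks of 37, 120 and 2794. The summit counted for Dref was that of RpL13, 79 bp from the TSS of Dref, and the summit counted for Mybbp1A was that of RpL36. The remaining bound partners were Ns2 at rank 259, Nopp140 at 1821, M1BP at 2795, Nle at 3430, Ns1 at 3865, Fib at 3976, hoip at 5786 and RIOK2 at 5833. The summits of eIF6, Rack1, sta, Trf2, Nopp140 and Fib were nearest to a TSS of the gene itself, and those of the other 8 bound partners were nearest to another gene. With each summit counted only for the gene with the nearest TSS, these 8 drop out, and 19.4% of all genes were bound. The 18 unbound partners were Gar1, Myc, NHP2, Nmd3, Nnp-1, Non1, Non3, Nop56, Nop60B, Polr1A, Polr1B, RIOK1, Surf6, Tif-IA, mod, pit, ppan and wcd, most of them factors of rRNA synthesis and modification or of subunit assembly in the nucleolus.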

How the data were processed

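Regions bound by mirr-GFP were mapped by ChIP-seq in 3 biological replicates of whole embryos. Per the file headers, the authors aligned reads to dm6, called a relaxed list in each replicate against 1 shared control alignment, called a pooled list, and derived the optimal list by irreproducible discovery rate (IDR). The value of each region is the signal deposited by the authors. Its scale, the read numbers, the aligner, the peak caller and the IDR threshold are not given in the sources used here. It served only to rank regions within a list. Sequencing depth is unknown, so no floor is given, and Wilson intervals cover counting error alone.

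Summits were set against protein-coding genes of the Ensembl 115 annotation (BDGP6.54), and sequence was read from the RefSeq release 6 genome, the same build; 30540 of 30593 annotated start codons read ATG in it (99.8%). Computation used Python 3.11.15, pandas 2.3.3, numpy 2.4.6 and scipy 1.17.1, and the assignment was tested on simulated regions. Genes were named by rule: the 12 strongest and 4 weakest members, every member without an optimal summit, all paralog copies, the stalk, 5S-binding and ubiquitin-fusion genes, RpS3, RpS6, members whose replicate lists differed, and listed partners; RpS20 and RpL6 were named after their values were seen, and some genes that the rule names are not reported here. The members, gene lists and sequences were chosen with earlier results of these data known. The alternatives were the distance, the choice of TSS, the list, the gene assignment, the sequence window and leaving out each replicate.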

Additional observations from a re-analysis of the deposited data

How the results depend on the processing

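No paired analysis was possible because all samples form 1 group. With other settings of the optimal list, 64 to 73 ribosomal protein genes had a summit, against 14.2% to 30.8% of all genes. The settings were a distance of 250, 500 or 2000 bp, the most upstream TSS alone, the peak interval, the nearest gene and the stronger 3100 regions. The pooled relaxed list reached 84, against 54.5% of all genes. The share bound was 67.6% for the genes with no other TSS within 1000 bp, against 18.1% of such genes of all kinds. The mean share over the strongest regions of the replicates was 64.1% with 3100 regions per replicate, against 14.0% of all genes. With the whole relaxed lists it was 88.8%, against 54.7%. Leaving out 1 replicate gave 75.5% to 80.4%, against 22.5% to 25.3%. The number reached in all relaxed lists used was 72 to 81 when 1 replicate was left out, against 41.2% to 48.6% of all genes.

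The median rank percentile, 13.7 in the optimal list, was 2.87, 6.79 and 4.57 in the relaxed lists of replicates 1, 2 and 3, and 3.72 to 5.68 with 1 left out; these lists are longer by construction. The median distance to the TSS, 18 bp, was 24, 27 and 27 bp in those lists, 25.5 to 27 bp with 1 left out, and 38 bp from the most upstream TSS. The number of genes with the CTTT start, 58, was 20 within 2 bp of a TSS (3.28% of all genes), 83 within 20 bp (26.7%) and 31 at the most upstream TSS alone (5.64%), so it depends on the window. Of 24 recomputed shares of sequences 10 fell outside the first interval, and none changed its order against all bound genes. Depth limits are unknown, because no read numbers were used.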

Other observations

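Of the 92 ribosomal protein genes, 6 (6.52%) lay among the 6201 strongest regions of 2 replicates and had no region at all in the relaxed list of the other, against 260 of 13945 genes of all kinds (1.86%). Only genes among the strongest regions of exactly 2 replicates could be counted, and 11 of the ribosomal protein genes were. The matching number over all genes was not taken, so the 2 shares do not compare how often a region went missing. RpL35A, RpL36, RpS14b and RpS27A had no region in replicate 3, whose nearest summits lay 3339, 7288, 1179 and 5420 bp away. RpL9 and RpL38 had no region in replicate 2, whose nearest summits lay 17179 and 1165099 bp away. Over all genes the missing list was that of replicate 1 in 10 cases, of replicate 2 in 117 and of replicate 3 in 133.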
